A study of Mus musculus with 2 samples.

Results

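The cytosolic ribosomal protein genes encode the protein part of the ribosome, and they were taken as all genes of the deposited expression table whose symbol is Rpl or Rps followed by a number and, where present, a letter or a further digit, together with *Rplp0*, *Rplp1*, *Rplp2* and *Rpsa*. Ribosomal S6 kinases were left out. This rule used symbols only and no measured value, and it found 84 of the 21041 genes in the table, 33 of the small subunit (40S) and 51 of the large subunit (60S). Of these, 77 encode subunits of the canonical ribosome and 7 are paralogues of them (*Rpl3l*, *Rpl7l1*, *Rpl10l*, *Rpl22l1*, *Rpl39l*, *Rps4l* and *Rps27l*). mRNA was sequenced from CD4 and CD8 double-positive (DP) thymocytes, the stage at which most developing T cells reside, with 1 library from WT and 1 from *Cxxc1*-deficient mice. Cxxc1 is a CpG-binding subunit of the Setd1 complex, which trimethylates histone H3 at lysine 4. In the paper, WT mice carried the floxed *Cxxc1* fl/fl allele without Cre, and deficient mice were *Cxxc1* fl/fl with hCD2-Cre, a transgene that is active in the whole T lineage from before the DP stage. The genotype label of the deficient library reads Cxxc1+/- instead, and the library was placed by its title. *Cxxc1* itself had 91 in WT and 50 in the library labelled *Cxxc1*-deficient, from approximately 59 and 28 reads, a ratio of 0.55 as deposited with an interval from 0.34 to 0.88 and of 1.096 with equal medians of genes whose mean reached 100. The floxed allele loses internal exons only, and a value per gene does not separate them, so this value can neither bear out nor contradict the label. For DP cells of its deficient mice the paper reported the loss of Cxxc1 by PCR of genomic DNA, by quantitative PCR of the mRNA and by western blot. The library is called deficient below by its label. The labels give neither the age nor the number of mice behind a library, and they do not say whether cells of several mice were pooled.

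Every protein of a cell is made by ribosomes, which are assembled in the nucleolus from ribosomal RNA and about equal amounts of each ribosomal protein. The mRNAs of these proteins belong to the most abundant of a dividing or growing cell, and share a terminal oligopyrimidine (TOP) tract that ties their translation to mTOR signalling. Developing thymocytes are known for their sensitivity to ribosomal protein loss, because free ribosomal proteins of the large subunit can stabilise p53. Most ribosomal protein genes of mammals also have many processed pseudogenes, which are intronless copies of the mRNA inserted elsewhere in the genome, so that a short read from the mRNA often has more than 1 possible origin.

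Reads were 50 bases long, and the authors kept only those with a unique place in the genome. Windows of 50 bases from the coding sequence are therefore shown for 5 genes, 2 that had high values and mostly unique sequence (*Rpl4* and *Rpl8*), 1 that had a high value in spite of a copied coding sequence (*Rpl15*), and 2 at or near 0 (*Rps12* and *Rps27*). Each is the window within 1 exon that lies closest to the middle of the coding sequence of the longest GENCODE vM1 transcript, read 5′ to 3′ along the mRNA from the NCBIM37 genome, the build also known as mm9. Capitals mark the bases at which a copy elsewhere differs from the gene.
Rpl4 exon 6, chr9:64024807-64024856, plus strand: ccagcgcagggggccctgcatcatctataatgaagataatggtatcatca
Rpl4 copy, chr1:144990529-144990578, minus strand: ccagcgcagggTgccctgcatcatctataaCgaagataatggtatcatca
Rpl8 exon 4, chr15:76735330-76735379, plus strand: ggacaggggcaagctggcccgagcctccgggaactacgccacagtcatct
Rpl15 exon 3, chr14:19102421-19102470, minus strand: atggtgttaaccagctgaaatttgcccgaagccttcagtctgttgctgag
Rps12 exon 4, chr10:23505718-23505767, minus strand: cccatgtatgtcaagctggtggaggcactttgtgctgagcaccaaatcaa
Rps12 copy, chrX:121463509-121463558, minus strand: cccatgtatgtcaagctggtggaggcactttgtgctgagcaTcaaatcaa
Rps27 exon 3, chr3:90016917-90016966, minus strand: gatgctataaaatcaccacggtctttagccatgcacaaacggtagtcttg

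The *Rpl8* window had no other place in the genome, even with up to 2 bases different. The *Rpl4* window had no exact copy and 1 copy with 2 differences. The *Rps12* window, by contrast, occurred exactly at 8 other places and within 2 differences at 19. The *Rpl15* window had 7 exact copies and 17 within 2 differences, and the *Rps27* window had 2 and 4. The same count over all windows of a transcript gives the share of it that a unique read can reach. Over the 81 ribosomal protein genes with a GENCODE vM1 transcript, the median of this share was 50.3%, against 100% over 19090 genes of the table and 100% over 76 mitochondrial ribosomal protein genes. The share was under 50% for 40 of the 81 genes, as for 5.43% of all genes with a transcript, and at least 90% for 9. In the coding sequence alone the median share was 9.70%. When windows with a copy of up to 2 differences were counted as not unique, the median coding share was 0%, and 60 of the 81 genes had no such window at all. The unique share was thus lower in the coding sequence than over the whole transcript. *Rpl21*, with a median of 59 other places for a coding window, *Rpl7a* with 53, *Rps2* with 45 and *Rpl29* with 44 had the most places within 2 differences.

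The values of the ribosomal protein genes were low in both libraries. The deposited value is a normalized expression level per gene, rounded to whole numbers. Its median was 7.5 in WT and 6.5 in the deficient library over the 84 genes, against 36 in both libraries over all genes. The 84 values summed to 2843 in WT, 0.183% of the sum of the table, and to 1513 in the deficient library, or 0.154%. Of the 84 genes, 24 (28.6%) were listed at 0 in both libraries, against 4.35% of all genes. A further 17 were listed at 0 in the deficient library alone, 8 in WT alone, and 35 were above 0 in both. Both subunits had such genes, with 10 of 33 small-subunit and 14 of 51 large-subunit genes at 0 in both. The genes listed at 0 in both libraries included *Rps2*, *Rps4x*, *Rps10*, *Rps12*, *Rps16*, *Rps18*, *Rps23*, *Rps26* and *Rps28* of the small subunit, and *Rpl5*, *Rpl10*, *Rpl11*, *Rpl12*, *Rpl17*, *Rpl22l1*, *Rpl23a*, *Rpl26*, *Rpl27*, *Rpl28*, *Rpl35*, *Rpl36*, *Rpl36a* and *Rplp2* of the large subunit. Since nearly all of these proteins are part of every ribosome, a value of 0 is given here only as what the table lists. At the other end, 6 genes, among them *Rpl4*, *Rpl8*, *Rps3*, *Rpl15* and *Rps9*, made up 64.1% of the summed value in WT and 44.5% in the deficient library.

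**Figure D1:**
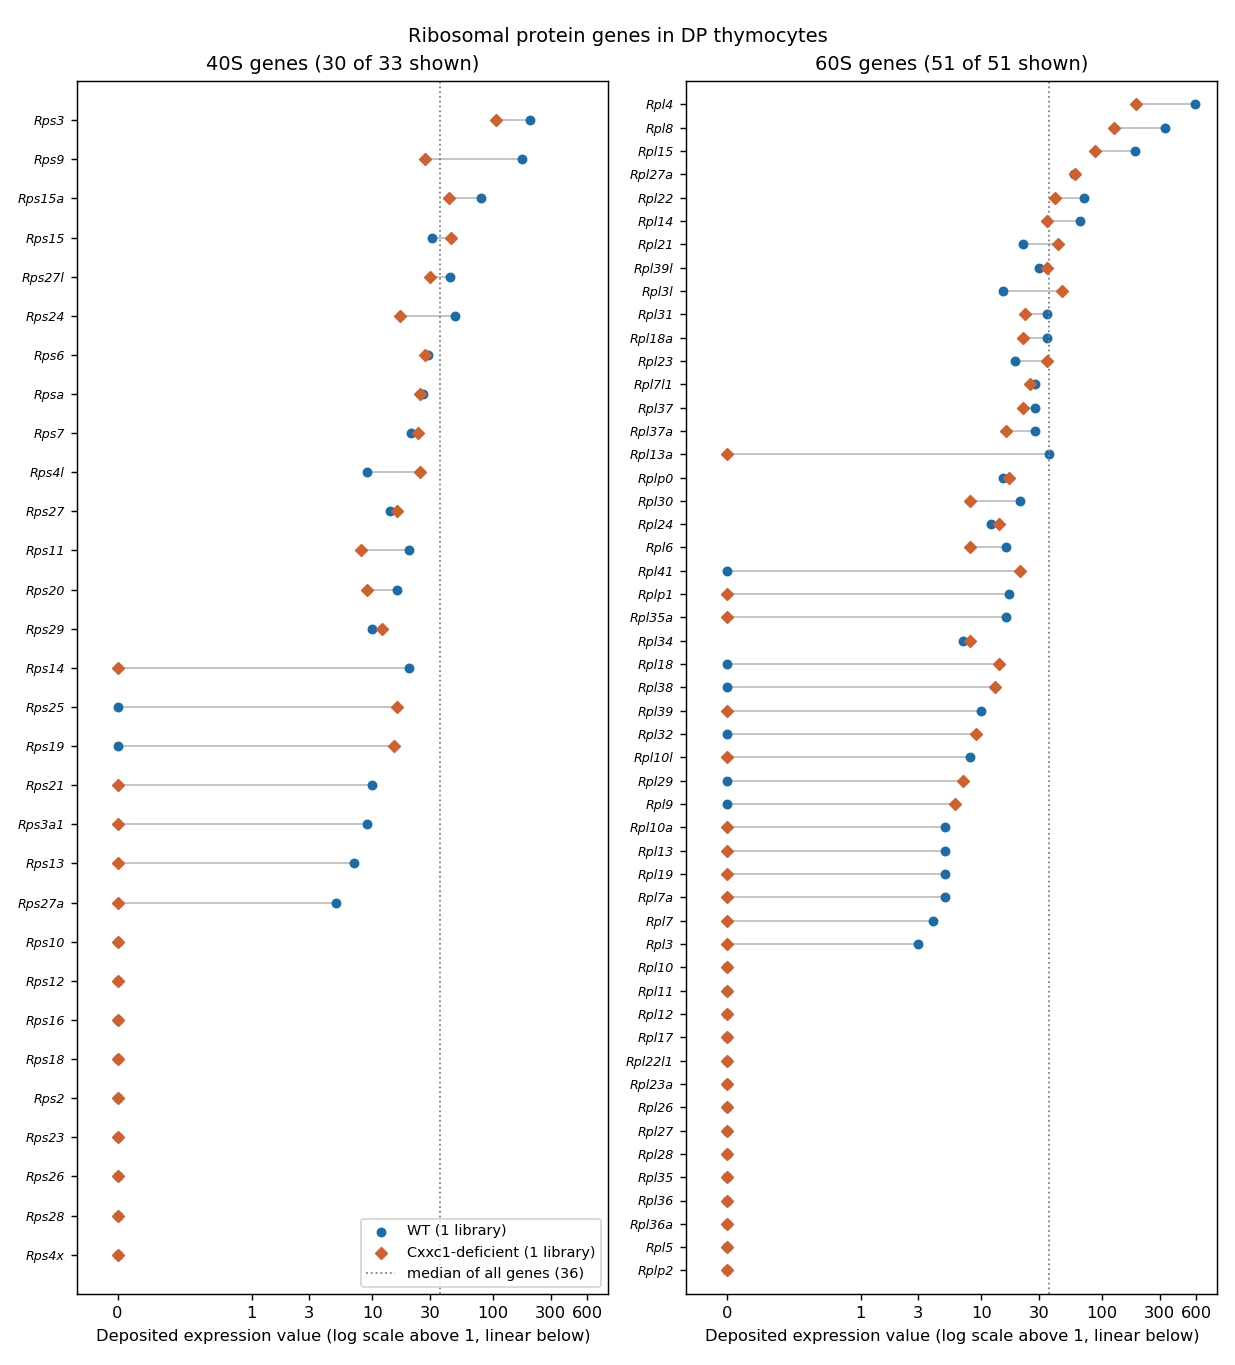
Deposited expression values of 30 of the 33 small-subunit genes (left) and of the 51 large-subunit genes (right), on an axis that is logarithmic above 1 and linear below. Circles are the WT library, diamonds the Cxxc1-deficient library, and the dotted line is the median of all genes, 36. The lowest genes sit at 0 in both libraries, and the genes furthest to the right, with Rpl4 at 585 and 189, are lower in the library labelled Cxxc1-deficient as deposited.

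Most of these values rested on a few reads. Value times transcript length came out as a whole number of reads, within the rounding of the table, for 74.8% of 1968 short genes with a single transcript in WT and for 73.8% of 1954 in the deficient library, against 21.9% and 18.8% if remainders were evenly spread. The values are thus per length, and 1 read per kilobase is worth approximately 4.06 in WT and 4.70 in the deficient library, a ratio of 1.16 for equal reads. On this scale the libraries held approximately 1372735 and 709739 reads on 19090 genes, of which 737 (0.0537%) and 331 (0.0466%) were on the 81 ribosomal protein genes with a known length. Of the 57 of these genes above 0 in at least 1 library, 17 had at most 1 read in each library, 28 at most 3 and 40 at most 10. Only 6 genes in WT and 2 in the deficient library had over 30 reads. Numbers of reads are estimates that depend on which transcript the authors used, and all intervals on ratios below are exact 95% Clopper-Pearson intervals from these reads, reflect counting error alone, and they set the libraries, not the genotypes, against each other.

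**Figure D2:**
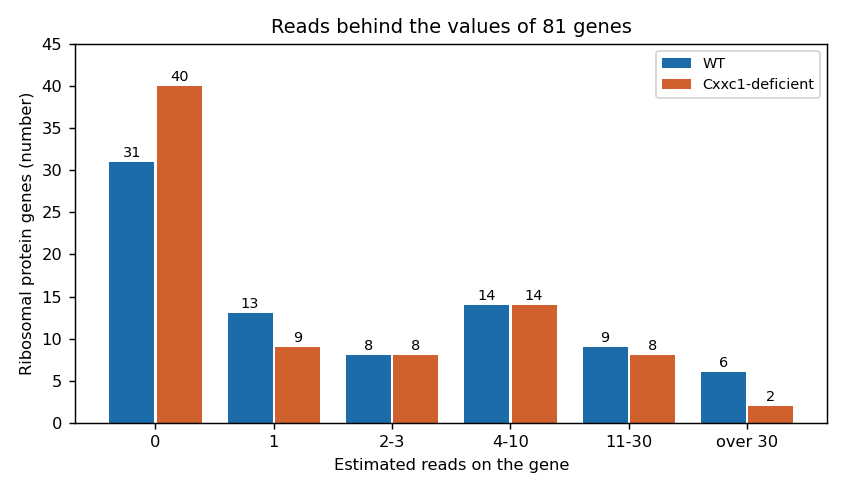
Number of ribosomal protein genes (vertical axis) by estimated reads on the gene (horizontal axis) in the WT and the Cxxc1-deficient library, over the 81 genes with a known transcript length. In WT 31 genes had no read and 6 had over 30, and in the library labelled Cxxc1-deficient 40 had no read and 2 had over 30.

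Genes without a known role in thymocytes were not at 0 in these libraries, and their values give the background of the measurement. The 1102 olfactory receptor genes of the table had a median of 22 in WT and 24 in the deficient library, and their 95th percentile was 53.95 and 57. In WT, 10 ribosomal protein genes were above that percentile, among them *Rpl4*, *Rpl8*, *Rps3*, *Rpl15*, *Rps9*, *Rps15a*, *Rpl22*, *Rpl14* and *Rpl27a*. In the deficient library 6 were above it, among them *Rpl4*, *Rpl8*, *Rps3*, *Rpl15* and *Rpl27a*. All other ribosomal protein genes were at or below it in both libraries, within the range of that background. The percentile was not corrected for unique sequence, of which ribosomal protein genes had a median share of 50.3%, against 100% over all genes with a transcript. A value in that range therefore does not show that a gene is unexpressed.

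The level of a ribosomal protein gene went with the share of its sequence that is unique. The 66 genes with under 10% of coding windows unique at up to 2 differences had medians of 5 in WT and 0 in the deficient library, and 45 of them were listed at 0 in at least 1 library. The 7 genes with a share from 10% to 50% had medians of 31 and 27. The 8 genes with at least 50% had medians of 40 and 40.5, and none of these 8 was at 0 in both. *Rpl13a* and *Rpl24* were among these 8 by their longest annotated transcripts. Across the 81 genes the Spearman correlation between mean value and unique share of the longest transcript was 0.65, a description across genes that share libraries and that also differ in length (0.41 between mean value and length). The same trend was present in other genes. Of other protein-coding genes with under 10% unique windows, 94.3% of 211 were listed at 0 in both libraries, against 0.0835% of 15561 genes with at least 90%. Not all genes followed it. Of 11 ribosomal protein genes with under 10% unique windows, 54.5% were listed at 0 in both libraries. From 10% to 50% it was 44.8% of 29, against 51.8% of 736 other protein-coding genes. From 50% to 90% it was 15.6% of 32, against 4.18% of 1988 others. The ribosomal protein genes at 0 in that last range were *Rplp2*, *Rpl35*, *Rpl12*, *Rpl5* and *Rps28*. That range is of all windows of the longest annotated transcript, which may not be the sequence that was counted. Of its coding windows alone, 30.7%, 6.85%, 0%, 0% and 0% were unique, respectively. Why these genes were at 0 was not tested. *Rpl15*, *Rpl27a*, *Rpsa* and *Rpl31* had values above 0 although none of their coding windows was unique, and had unique windows elsewhere in the transcript (61.2%, 60.3%, 48.2% and 58.2% of all windows, respectively). *Rps6*, with 29 and 27, had no unique coding window and 5.56% unique windows in all, and *Rps27*, with 14 and 16, had 0.38%. In the muscle paralogue *Rpl3l*, by contrast, the values were 15 and 46 although all coding windows were unique. *Rpl13a* and *Rpl24* also had low values, at most 36, with at least 82.2% of coding windows unique. Their shares come from the longest annotated transcripts, of 13 exons for *Rpl13a* and of 11 exons and 4999 bases for *Rpl24*. These models may hold sequence beyond the ribosomal protein. Reads of *Rpl24* were estimated with 677 bases, so its share may not describe the sequence that was counted.

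**Figure D3:**
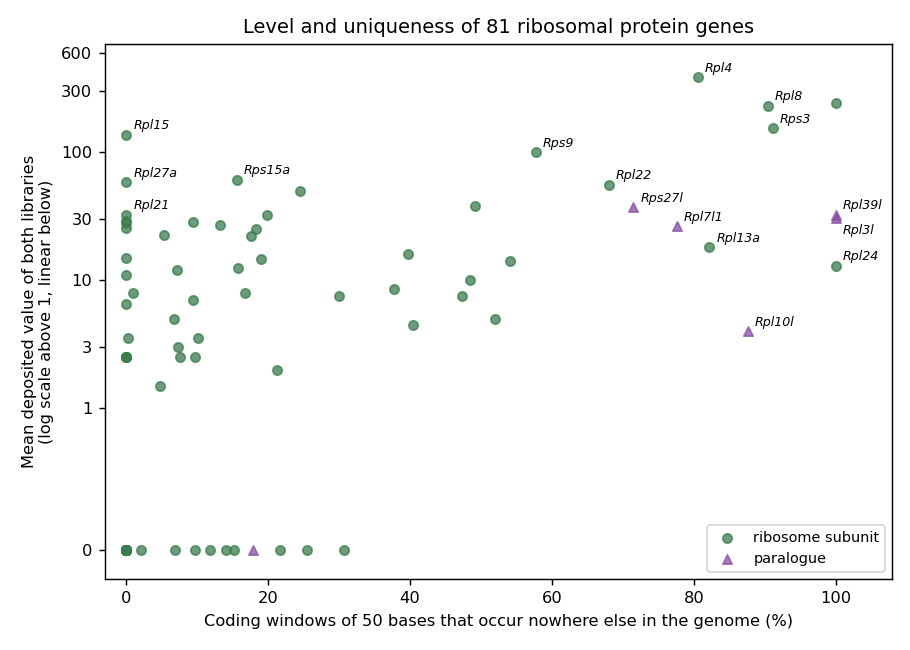
Mean deposited value of both libraries (vertical axis, logarithmic above 1 and linear below) against the percentage of 50-base coding windows without an exact copy elsewhere in the genome, for 81 ribosomal protein genes. Circles are canonical subunits and triangles are paralogues. Percentages are of the longest annotated transcript, which for Rpl24 (11 exons) and Rpl13a (13 exons) may hold sequence beyond the ribosomal protein. Genes at 0 are on the left, with at most 30.7% unique windows, and Rpl4, Rpl8 and Rps3, with at least 80.6%, are among the highest values, while Rpl15 stands apart at 0% and a mean near that of Rps3.

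As deposited, the ribosomal protein genes with the highest values were lower in the *Cxxc1*-deficient library, as were 95.2% of all genes whose mean reached 100. Of the 60 ribosomal protein genes above 0 in at least 1 library, 39 (65%) had a lower value in the deficient library, against 12072 of 20125 genes (59.99%) of the table, and 21 had a higher value. With values raised to at least 1, 26 were at least 2-fold lower, against 17.4% of all genes, but 17 of the 26 were at 0 in the deficient library and 9 were above 0 in both. At least 2-fold higher were 10, against 5.89% of all genes, of which 8 were at 0 in WT. The median log2 ratio was -0.82 over the 60 genes and -0.55 over the 35 above 0 in both libraries, against -0.20 over all genes in either case. Small-subunit genes had a median of -0.88 and large-subunit genes of -0.77. The interval of the ratio lay below 1 for 7 of 57 genes (12.3%), against 19.4% of 18349 genes of the table, and above 1 for 1 gene (1.75%), against 1.71%. With equal medians of genes whose mean reached 100, 3 intervals lay below 1 and 3 above, against 3.60% and 32.6% of all genes. These counts compare 1 library with 1 library and no difference has a replicate check. In a bulk library, fewer cells of a type and less RNA per cell cannot be told apart.

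The direction depended on the level of the gene and on how the libraries were scaled. All 6 ribosomal protein genes whose mean reached 100 were lower as deposited, and *Rps3* alone was not (ratio 1.03) under the scaling to equal medians of genes of that level. As deposited, 5 of these 6 were at least 2-fold lower, against 56.8% of the 2472 genes of that level. Their median log2 ratio was -1.34, against -1.08 over those 2472 genes. For a mean of 15 to 50 the median log2 ratio was -0.06 over 19 ribosomal protein genes and 0 over 12420 genes, with 10 of the 19 lower. When the libraries were scaled so that genes whose mean reached 100 had equal medians, the 60 genes had a median log2 ratio of 0.18 and 43.3% of them were lower. With the same estimated reads on genes in both libraries it was -0.080.

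**Figure D4:**
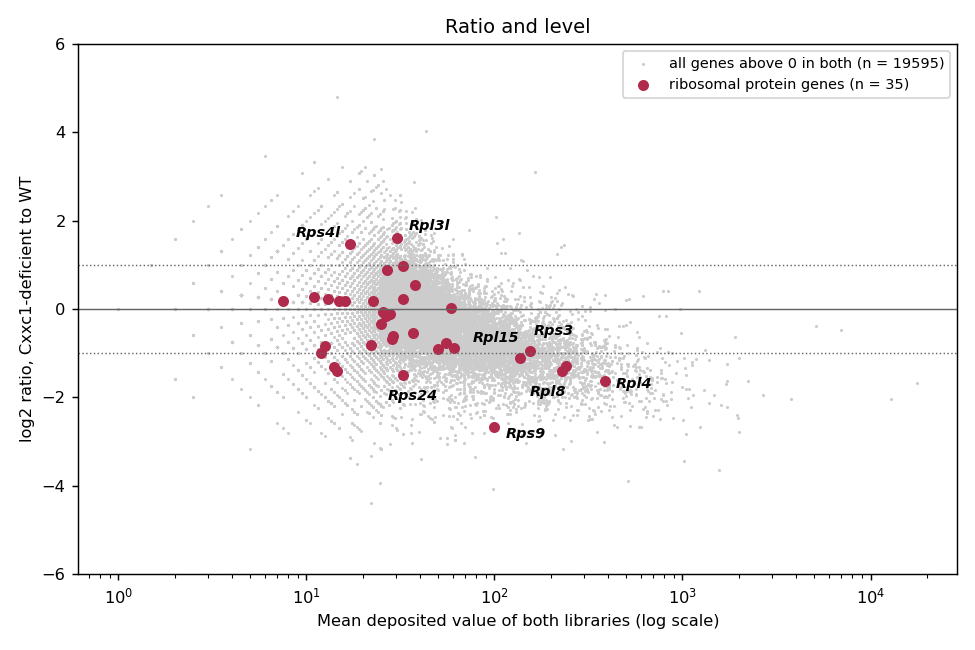
log2 ratio of Cxxc1-deficient to WT (vertical axis) against the mean deposited value (horizontal axis, log scale) for the 19595 genes above 0 in both libraries (grey) and the 35 ribosomal protein genes among them (red). Dotted lines mark 2-fold. The 6 ribosomal protein genes whose mean reached 100 all lie below 0 as deposited, Rps9 lowest at -2.68, and those with lower means lie on both sides.

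Of the large subunit, *Rpl4* (longest transcript at chr9:64021194-64026369, plus strand), which lines the exit tunnel for the new peptide, had the highest value of all ribosomal protein genes, 585 in WT and 189 in the deficient library. The ratio was 0.32 with an interval from 0.24 to 0.43, from approximately 205 and 57 reads, and 16.8% of the 2472 genes whose mean reached 100 had a ratio as low. *Rpl4* was lower under all 5 other scalings, with ratios up to 0.64 and an upper bound of at most 0.87. *Rpl8*, a protein near the peptidyl transferase centre, had 334 and 126 from 71 and 23 reads, a ratio of 0.38 with an interval from 0.22 to 0.61, which included 1 under 2 of the 5 other scalings (upper bound up to 1.21). *Rpl15*, a core protein of the large subunit, had 187 and 87 from approximately 39 and 16 reads. Its ratio was 0.47 with an interval from 0.25 to 0.87, which included 1 under 4 of the 5 other scalings (upper bound up to 1.74). None of its annotated transcripts gave whole reads, so the median length was used. With the shortest and the longest transcript its reads were 23 and 89 in WT and 9 and 36 in the deficient library. The interval of *Rpl15* is therefore less certain than that of *Rpl4*. Thus the large-subunit genes with the most reads were lower by 2.15-fold to 3.10-fold as deposited.

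Of the small subunit, *Rps3*, which lies at the mRNA entry channel and also acts in DNA repair, had 203 in WT and 105 in the deficient library, a ratio of 0.52 with an interval from 0.33 to 0.79, from approximately 72 and 32 reads. With equal medians of the highly expressed genes, the ratio of *Rps3* was 1.03, and its interval included 1 under 4 of the 5 other scalings (upper bound up to 1.58). *Rps9* (longest transcript at chr7:3655640-3658497, plus strand), a protein that binds ribosomal RNA early in assembly, differed most. It had 173 in WT and 27 in the deficient library, approximately 35 and 5 reads, and was 6.41-fold lower with a ratio interval from 0.05 to 0.42. Under the 5 other scalings the ratio of *Rps9* was between 0.16 and 0.31, with an upper bound of at most 0.85. With the shortest and the longest annotated transcript, the WT value of *Rps9* corresponded to 14 and 57 reads and the deficient one to 2 and 8, so its interval is less certain than that of *Rpl4*.

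For genes of intermediate level, no difference was detectable at this depth with the transcript lengths used. *Rps15a* had 79 and 43, *Rpl22* had 70 and 41, and *Rpl14* had 65 and 35. Their ratios were 0.54, 0.59 and 0.54, and each interval included 1. No annotated transcript of *Rps15a* or *Rpl22* gave whole reads. With the shortest and the longest transcript, *Rps15a* had 5 and 100 reads in WT and 2 and 47 in the deficient library. For *Rpl22* the reads were 8 and 35 in WT and 4 and 18 in the deficient library. The intervals of both genes are therefore uncertain. *Rpl27a*, by contrast, had nearly equal values of 58 and 59, with an interval of the ratio from 0.48 to 2.18. *Rps24*, a small-subunit protein mutated in some cases of Diamond-Blackfan anaemia, had 48 and 17 from 10 and 3 reads, with an interval from 0.06 to 1.35. *Rps15* (31 and 45), *Rpl21* (22 and 43) and *Rpl23* (19 and 35) had higher values in the deficient library, with intervals that included 1 and at most 17 reads in a library.

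Ribosomal proteins with roles in p53 control or at special places of the ribosome were mostly not readable in these libraries. *Rpl5* and *Rpl11*, which bind Mdm2 when ribosome assembly fails, were listed at 0 in both libraries, as was *Rpl26*, which binds the p53 mRNA. None of the coding windows of *Rpl5* or *Rpl11* was unique, but 54.0% and 32.9% of all windows of their longest transcripts were. For *Rpl26* 21.7% of coding windows and 48.8% of all windows were unique. Whether copies account for these values of 0 was not tested. *Rps14* and *Rps19*, whose loss causes anaemias with p53 activation in humans, went in opposite directions on very few reads. *Rps14* had 20 in WT and 0 in the deficient library, from approximately 3 reads. *Rps19* had 0 and 15, from approximately 2 reads. *Rps27a*, made as a fusion with ubiquitin, had 5 and 0 from 1 read. *Rps6*, the substrate of S6 kinase downstream of mTOR, had 29 and 27, and *Rpsa*, which is also known as the laminin receptor, had 26 and 25. Of the stalk proteins that recruit translation factors, *Rplp0* had 15 and 17, *Rplp1* had 17 and 0 from approximately 2 reads, and *Rplp2* was at 0 in both. For each of these genes that was above 0 in at least 1 library, the interval of the ratio included 1.

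*Rpl13a* was the only gene listed at 0 in 1 library whose interval excluded 1. *Rpl13a* (longest transcript at chr7:52381292-52391601, minus strand), which besides its place in the large subunit takes part in silencing of inflammatory mRNAs, had 36 in WT and 0 in the deficient library. The WT value corresponded to approximately 13 reads, or 8 with the shortest annotated transcript, and the upper bound of the ratio was 0.38. That bound stayed at or below 0.76 under the 5 other scalings. Of the coding windows of its longest annotated transcript, which has 13 exons and 1477 bases, 82.2% were unique. That transcript also set the 13 reads behind the bound. The share and the bound thus depend on this model, which may hold sequence beyond *Rpl13a*. The WT value of *Rpl13a* was nevertheless within the range of olfactory receptor genes. The other 16 genes at 0 in the deficient library alone had WT values from 3 to 20 and, where a length was known, at most 3 reads (among them *Rps3a1*, *Rps13*, *Rps14*, *Rps21*, *Rps27a*, *Rpl3*, *Rpl7*, *Rpl7a*, *Rpl10a*, *Rpl10l*, *Rpl13*, *Rpl19*, *Rpl35a*, *Rpl39* and *Rplp1*). The 8 genes at 0 in WT alone had values from 6 to 21 in the deficient library and, for all but *Rpl41*, whose length was not known, at most 2 reads (*Rps19*, *Rps25*, *Rpl9*, *Rpl18*, *Rpl29*, *Rpl32*, *Rpl38* and *Rpl41*). No difference was detectable at this depth for the genes of known length.

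In 6 of 7 pairs the paralogue had a higher mean value than the parent gene, the exception being *Rpl22l1*. All values of the paralogues were below the 95th percentile of olfactory receptor genes (53.95 in WT and 57 in the deficient library). The median share of unique windows was 83.95% over 6 paralogues with a transcript and 48.8% over 75 canonical genes. Whether a paralogue was expressed more than its parent was not tested. *Rpl3l* (longest transcript at chr17:24864774-24873094, plus strand), which replaces *Rpl3* in heart and skeletal muscle, had 15 in WT and 46 in the deficient library, from approximately 4 and 12 reads. Its ratio of 3.07, with an interval from 1.05 to 14.8, was the only one with an interval above 1 as deposited. Of the 12420 genes with a mean of 15 to 50, 1.70% had a ratio as high. Neither annotated transcript of *Rpl3l* gave whole reads, so the median length was used. With the shortest and the longest transcript the reads were 4 and 5 in WT and 10 and 13 in the deficient library. Its lower bound is close to 1 and depends on that choice. Both values were below the 95th percentile of olfactory receptor genes, and all coding windows of *Rpl3l* were unique. *Rpl3* itself had 3 and 0, with 4.75% of its coding windows unique. *Rps27l*, a paralogue of *Rps27* induced by p53, had 44 and 30 with an interval from 0.11 to 3.58, while *Rps27*, whose coding windows all had copies, had 14 and 16 from 1 read in each. *Rpl7l1* had 28 and 25 against 4 and 0 for *Rpl7*, and *Rpl39l*, a testis paralogue, had 30 and 35 against 10 and 0 for *Rpl39*. *Rpl10l*, another testis paralogue, had 8 and 0 and *Rpl10* was at 0 in both. *Rps4l* had 9 and 25, and the X-linked *Rps4x* was at 0 in both. *Rpl22* and *Rpl22l1* have opposed roles in T cell development, in which *Rpl22* is needed by alpha-beta thymocytes. *Rpl22* had 70 and 41 with an interval of the ratio from 0.25 to 1.25, and *Rpl22l1* was listed at 0 in both libraries, with 17.9% of its coding windows unique.

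Most genes of related function were lower in the deficient library as deposited. So were 47.9% of all genes whose mean was 15 to 50, 82.6% of those from 50 to 100 and 95.2% of those above. The median share of unique windows was 99.8% for genes of ribosome biogenesis, 71.9% for other TOP mRNAs and 100% for mitochondrial ribosomal protein genes. For the ribosomal protein genes it was 50.3%. Among further ribosome subunits that the symbol rule does not take, *Gnb2l1*, which encodes the scaffold protein Rack1 of the small subunit, had 430 and 169, and *Fau* had 24 and 6. Of the 4 further subunits in the table, 2 were listed at 0 in both libraries, among them *Rpl36al*, and their median unique share was 54.3%. Of 69 genes of ribosome biogenesis, 68 were above 0 in at least 1 library, of which 61 were lower and 22 were at least 2-fold lower. In all genes from 50 to 100, which is the range of their median level of 66.5, 20.04% were at least 2-fold lower. Their median was 87 in WT and 51 in the deficient library. Their median log2 ratio was -0.71 as deposited, 0.027 with the same estimated reads on genes and 0.29 with equal medians of the highly expressed genes. Of 20 other genes with TOP mRNAs, 17 were lower, with medians of 118 and 48.5 and a median log2 ratio of -1.20, which was -0.20 with equal medians of the highly expressed genes. Of 77 mitochondrial ribosomal protein genes, which encode the separate ribosome of the organelle, 3 were listed at 0 in both libraries. Their medians were 57 and 31, with 61 of the 74 above 0 lower and a median log2 ratio of -0.68, which was 0.31 under that scaling and 0.054 with the same estimated reads. The table also holds 7 annotated pseudogenes of ribosomal protein genes. *Rpl14-ps1*, with 228 and 142, was above its parent gene *Rpl14*, and *Rps15a-ps6* had 30 and 46. Reads of a gene and of a near-identical copy may not be separable, and such values are uncertain.

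The libraries carried the markers of their labelled cell type. All 14 DP thymocyte markers were above 0 and lower in the deficient library, with medians of 1944 and 456 as deposited, a level at which nearly all genes were lower. With equal medians of the highly expressed genes 12 of the 14 were lower, with a median log2 ratio of -1.06, against -2.06 as deposited. The summed values of marker lists of other cells were 198 and 141 for B cells, 236 and 235 for macrophages and dendritic cells, 75 and 65 for erythroid cells, with the alpha globins at 0, 126 and 113 for thymic epithelium, and 60 and 72 for NK cells. The part of such cells in the values of ribosomal protein genes was not tested. The alpha globins *Hba-a1* and *Hba-a2* had 19.3% and 25.2% unique windows, so their values of 0 do not show that their mRNA was absent.

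The promoters of ribosomal protein genes were rich in CG dinucleotides, the sequence that Cxxc1 binds when it is unmethylated. In the 250 bases before the start site (RefSeq, GRCm38.p6), 75 promoters of 63 ribosomal protein genes held a median of 18 CG, from 2 to 31, against a median of 6 over 32851 promoters. All 75 held at least 1 CG on the strand of the gene, as did 92.1% of all promoters, and since CG is its own reverse complement the count is the same on both strands. The 150 bases before the start are shown for *Rpl4*, the gene with the highest value, and for the upstream start of *Rpl3l*, the gene with an interval above 1, with each CG in capitals and with coordinates of GRCm38.p6, not of the build used above.
Rpl4, chr9:64173237-64173386, plus strand: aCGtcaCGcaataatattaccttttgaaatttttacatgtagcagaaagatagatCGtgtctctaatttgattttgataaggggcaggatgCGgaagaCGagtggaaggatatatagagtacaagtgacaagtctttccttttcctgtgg
Rpl3l, chr17:24727676-24727825, plus strand: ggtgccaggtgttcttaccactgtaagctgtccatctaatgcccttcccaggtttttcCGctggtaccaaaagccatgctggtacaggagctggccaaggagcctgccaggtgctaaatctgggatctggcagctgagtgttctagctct

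The *Rpl4* stretch holds 5 CG, and the *Rpl3l* stretch holds 1. *Rpl4* had 10 CG and *Rpl3l* 2 in the full 250 bases. These counts describe the sequence and are not binding sites, and binding of Cxxc1 was not analysed here.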

How the data were processed

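mRNA of DP thymocytes was sequenced in 2 samples, 1 WT and 1 *Cxxc1*-deficient library. Per the labels and the paper's methods, the authors sequenced 50-base reads, processed them with CASAVA 1.8.2 and Bowtie 1.0.1, kept reads mapped uniquely to mm9 and summarised them with Partek. Each deposited value is a score, that is, a normalized level of a gene rounded to whole numbers, whose unit and gene annotation are not given in the sources used here. All value columns belong to a sample.

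Ribosomal protein genes were chosen by symbol. The members, gene lists and rules were chosen with earlier results of these data known. Named genes were the 10 with the highest mean, the 5 lowest and 5 highest ratios among those with a mean of at least 36, genes with roles outside the ribosome, paralogue pairs, and genes at 0; any other gene is named with its value already known. Some of these genes enter the counts and are not reported here by name. Ratios are *Cxxc1*-deficient to WT, and list medians and 2-fold counts use values of at least 1. With 1 library per genotype, no test was run. Reads were estimated by a scan in steps of 100 for the constant of each library that makes value times length whole, over single-transcript genes of up to 1200 bases and values up to 60. The constants were 246500 and 212600. For genes with several transcripts the shortest with whole reads was used, otherwise the median length. Windows of 50 bases of GENCODE vM1 transcripts were counted over both strands of NCBIM37; windows that reach fewer than 8 bases past a junction were left out. Of the 84 genes, 81 matched GENCODE by symbol (not *Rpl41*, *Rps3a1* and *Rps4l*) and 63 matched RefSeq promoters. The scan and the window counts were tested on simulated data. The scripts ran under scipy 1.17.1, pandas 2.3.3, matplotlib 3.10.9 and numpy 2.4.6 in Python 3.11.15. Alternatives were other scalings, subtraction of the olfactory receptor median, pseudocounts, filters and thresholds; the scaling to the same estimated reads, the restrictions to genes above 0 in both libraries or with at least 20 reads, and the coding-window shares were added after seeing the data.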

Additional observations from a re-analysis of the deposited data

How the results depend on the processing

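No paired analysis was possible because there is only 1 library of either genotype. Of 104 alternative values, 54 stayed within the tolerance set for them, which was 0.1 for log2 ratios and correlations, 1.5 times for counts of genes and the 95% Wilson interval for shares. Of these 54, 5 are the median relative to all genes, which no scaling can change. The results reversed when the libraries were scaled to equal medians over the genes whose mean reached 100. The median log2 ratio was then 0.18, with 0.12 for 40S and 0.22 for 60S genes, 43.3% of the genes were lower, the summed value had a ratio of 1.06, and 21 genes were at least 2-fold higher. The other scalings multiply the deficient library by a smaller factor, and the median log2 ratio remained negative under them. With the same 75th percentile it was -0.43 (40S -0.49, 60S -0.38, sum ratio 0.70), with the same sum outside the 100 highest genes -0.26 (-0.32, -0.21 and 0.79), and with the same estimated reads -0.080 (-0.14, -0.033 and 0.89). After subtraction of the olfactory receptor median 26 genes were left, with a median of -1.60 (40S -1.52, 60S -1.69), -0.90 relative to all genes, 76.9% lower, 4 at least 2-fold higher and a sum ratio of 0.35. Over genes whose mean reached 15 the median was -0.55 (-0.33, -0.61), -0.35 relative to all genes, with 7 at least 2-fold lower and 2 higher. With a pseudocount of 10 it was -0.49 (-0.58, -0.49), -0.33 relative to all genes, with 12 lower and 6 higher. Over genes above 0 in both libraries it was -0.55 (-0.55, -0.48), -0.35 relative to all genes, with 9 lower and 2 higher. Over the 13 genes with at least 20 reads in both libraries together, 5 were at least 2-fold lower, 0 higher, 84.6% lower, and the sum ratio was 0.43. The Spearman correlation of level with unique share was 0.65 and fell to 0.53 when copies with up to 2 differences counted, to 0.47 for coding windows, and to 0.49 for coding windows with up to 2 differences. Depth limits all but the 6 genes of highest mean.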
